A study of Rattus norvegicus with 84 samples.

Results

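The mRNA cargo of plasma-derived extracellular vesicles (EVs) was compared between the hNSCs group and the control group 4 days poststroke, which was 1 day after the cells or saline were injected. The comparison used 6 of the 84 libraries of the series, 3 from each group, and the 18782 annotated genes among the 26637 rows of the mRNA table. All 6 animals were male Sprague-Dawley rats, wild type and 8 to 12 weeks old, in which the right middle cerebral artery had been occluded for 90 min. The hNSCs group received 200000 human neural stem cells (hNSCs), a line derived from human fetal telencephalon, through the carotid artery 3 days after the occlusion. The control group received saline at the same time. The study's methods describe the cells as given in glucose buffer, so the injected fluid may also have differed between the groups. The healthy group, 3 rats without stroke, served only for reference, as did the plasma libraries of both treatments taken 10 and 31 days poststroke, again 3 per group. The cells were a single human line in a rat host, and all counts here are reads assigned to rat genes. Transcripts of human sequence were not analysed separately, and whether any human reads were assigned to rat genes was not tested. The comparison asks whether the mRNAs carried by EVs in blood differed shortly after the cells were given.

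EVs are membrane particles that cells shed or secrete, and the RNA inside them reflects the cells that released them. In blood, most EVs come from platelets, red cells and their precursors, leukocytes, endothelium and liver. Maturing red cells expel membrane, organelles and leftover RNA, and platelets bud small vesicles when they are activated. Column separation by size does not remove every free RNA, lipoprotein or cell fragment. A bulk library of EV RNA cannot tell fewer vesicles of a given origin apart from less RNA per vesicle.

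The 6 libraries held between 11878367 and 48038008 counts, of which 45.1 to 75.3% fell on annotated genes, and detected between 9021 and 13328 genes. The shallowest was hNSCs replicate 2. Detection was close to all-or-none for many genes. Of the 12711 genes with at least 100 counts in a library of the hNSCs group, 40.5% were at 0 in another library of that group. In the control group, it was 32.4% of 12376 genes. Pearson's r of log2(CPM + 1) was taken over the 9320 genes with a mean over 10 CPM in the 6 libraries. CPM are counts per 1000000 after scaling for library size, for r by the total of annotated counts alone. The median r over the pairs of libraries was 0.567 within the control group, 0.579 within the hNSCs group and 0.585 between the groups. Control replicate 2 stood apart, with liver genes at 0.181% of its annotated counts against 4.70 and 7.99% in the other control libraries and 1.95 to 11.5% in the hNSCs libraries.

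A single gene, Tpx2, passed the test between the groups, and it was lower in the hNSCs group. Tpx2 encodes a spindle assembly factor that binds and activates Aurora A kinase in dividing cells. It had 259, 304 and 134 counts in control replicates 1, 2 and 3, and 0 counts in each of the 3 hNSCs libraries. The groups did not overlap. Tpx2 fell in the hNSCs group (edgeR quasi-likelihood test, adjusted p = 0.000997), and its level was at least 169-fold lower when 3 counts were taken as the floor for the 3 libraries, a bound that covers counting error only. The 15 other plasma libraries held between 189 and 2241 counts of Tpx2, so of the 21 plasma libraries only the 3 hNSCs libraries of 4 days were without it. Among all 14720 genes tested, none was called higher (0%) and 1 was called lower (0.00679%) when a call needed an adjusted p under 0.05 together with a difference of more than 1.5-fold. Without adjustment, 379 genes were higher (2.57%) and 201 lower (1.37%) at p under 0.05, together 3.94%.

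The call was not made by every fit. In a fit of the 6 libraries alone no gene was called, 124 genes were higher and 98 lower at an unadjusted p under 0.05, and Tpx2 had an adjusted p of 1. That fit also held fewer genes, 11875, after its own filter. limma on log2 FPKM did not call Tpx2 either, with an adjusted p of 0.729 with a pseudocount of 1 and 0.305 with one of 0.1. Over the 18 alternatives, its adjusted p ran from 7.39e-11 to 1. DESeq2 called 958 genes (6.06%), of which 908 were at 0 in all 3 libraries of a group. Tpx2 was called after leaving out each of the 6 libraries in turn. Without hNSCs replicate 3, however, 4 genes were called higher and 37 lower, whereas leaving out another library gave between 0 and 3 higher and 1 or 2 lower.

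**Figure D1:**
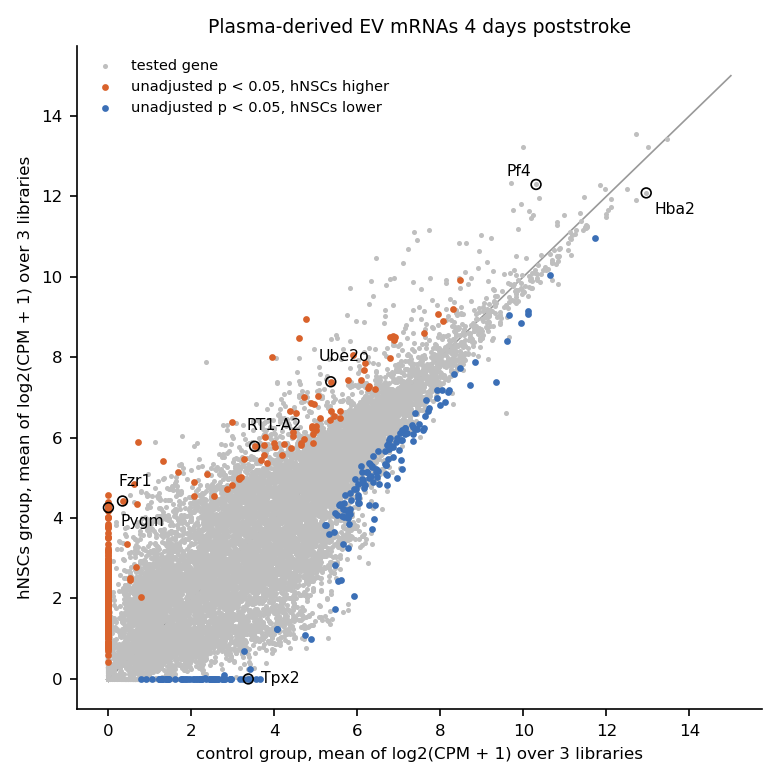
Each point is 1 of the 14720 genes tested, placed by its mean log2(CPM + 1) in the 3 control libraries (horizontal) and the 3 hNSCs libraries (vertical), with the 379 higher and 201 lower genes at an unadjusted p under 0.05 in color. Tpx2 lies on the horizontal axis, at a mean of 0 in the hNSCs group, and many colored genes lie on an axis because all 3 libraries of a group were at 0.

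Other genes of cell division lay on either side. Of the 30 members of the cell cycle list tested, 13 had a fold change above 0 and 16 below 0. Ccnb1, the mitotic cyclin B1, was at 0 in the control libraries and had 332, 0 and 77 counts in the hNSCs libraries. Nusap1, a spindle-associated protein, was found in hNSCs replicate 2 only, with 273 counts. Neither gene passed the test, and both were named after their values were seen. The replication helicase subunit Mcm7 had 39.6, 42.3 and 43.6 CPM in the control group and 72.9, 98.4 and 57.7 CPM in the hNSCs group, without overlap. Its log2 fold change was 0.87 (SE 0.46, adjusted p = 0.814). In the whole list, 1 member was higher without overlap and 2 were lower, against 3.34% and 4.36% of all genes.

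Of the 10 genes that followed Tpx2 in order of p, 4 belonged to the red cell membrane and heme list, and all 4 had higher values in the hNSCs group without passing the test. The 10 genes were named after their values were seen. Trim10, a ubiquitin ligase needed for the last steps of red cell formation, was at 0 in the control libraries and had 243, 0 and 334 counts in the hNSCs libraries (adjusted p = 0.1003). The Kell blood group gene Kel was likewise at 0 in the control group and had 0, 17 and 109 counts in the hNSCs group (adjusted p = 0.230). Klf1, a transcription factor of the red cell lineage, was at 0 in the control group and had 0, 2 and 497 counts in the hNSCs group (adjusted p = 0.238). A single hNSCs library carried nearly all counts of Klf1, and hNSCs replicate 2 for Trim10 and replicate 1 for Kel were at 0 like the control group.

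Ube2o, which marks proteins for destruction while reticulocytes mature, was present in every library. It had 35.5, 41.6 and 43.4 CPM in the control group and 175, 89.7 and 293 CPM in the hNSCs group. All 3 hNSCs libraries lay above all 3 control libraries, and the ratio of the means was 4.63. The log2 fold change of 2.21 (SE 0.51) had an adjusted p of 0.407. In the 15 other plasma libraries, Ube2o lay between 286 and 2557 CPM. The 3 control libraries and hNSCs replicates 1 and 2 of 4 days were below this range, and hNSCs replicate 3 was near its lower end.

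Fzr1, which encodes the Cdh1 activator of the anaphase-promoting complex, had the lowest p of the genes that were not called. It had 21, 0 and 0 counts in the control libraries and 472, 96 and 648 in the hNSCs libraries (adjusted p = 0.1003). The groups did not overlap, and the 15 other plasma libraries held 315 to 7541 counts. Slc43a1, an amino acid transporter, had no counts in the control group and 63, 19 and 0 in the hNSCs group (adjusted p = 0.212). Fzr1 was called in 5, Trim10 in 5, Kel in 3, Klf1 in 2 and Slc43a1 in 2 of their alternatives, and Ube2o in 1.

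The remaining genes of these 10 were RT1-A2, Il12rb2, Scml4 and Tspan33. RT1-A2, a class I major histocompatibility gene, had 9.83, 11.4 and 10.3 CPM in the control group and 90.0, 32.7 and 53.5 CPM in the hNSCs group. The groups did not overlap, and the log2 fold change was 2.48 (SE 0.48, adjusted p = 0.155). RT1-A genes are near-identical copies, so that reads may have been divided between them. Il12rb2, a subunit of the interleukin-12 receptor, had no counts in the control libraries and 0, 216 and 233 in the hNSCs libraries (adjusted p = 0.155). Scml4, a polycomb-related protein, had no counts in the control libraries and 292, 0 and 480 in the hNSCs libraries (adjusted p = 0.239). Tspan33, a tetraspanin of red cell precursors, had 0, 504 and 136 counts in the control group and none in the hNSCs group (adjusted p = 0.235), in the direction of Tpx2.

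**Figure D2:**
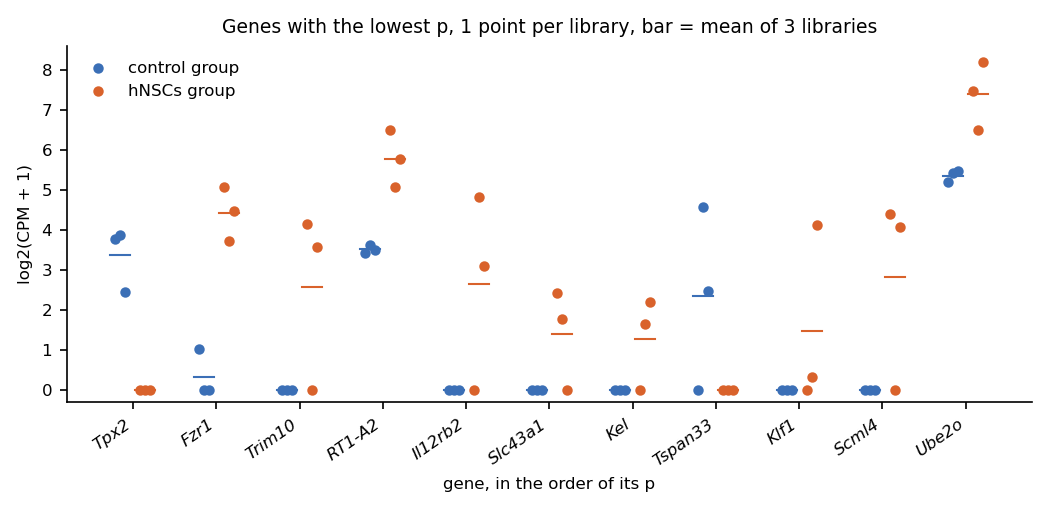
log2(CPM + 1) of the 11 genes with the lowest p in the 6 libraries, with 1 point per library and a bar at the mean of each group. Tpx2 is at 0 in all 3 hNSCs libraries, while Fzr1, RT1-A2 and Ube2o are the genes whose hNSCs libraries all lie above the control libraries.

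The same control libraries were also set against the healthy group, and because both comparisons share them, the values are given side by side only. Against the healthy group, 1 gene was called higher (0.00679%) and 9 lower (0.0611%) in the control group of 4 days. Among the 9 were Kel, Fzr1, Ube2o, Trim10, Slc43a1, Alas2, Cdc25b and Il12rb2, and the gene called higher was Procr, the endothelial protein C receptor. Alas2, the first enzyme of heme synthesis in red cells, had a mean of 914 ± 397 CPM (SD, n = 3) in the healthy group, 92.3 ± 19.5 CPM in the control group and 134 ± 79.3 CPM in the hNSCs group. Its log2 fold change was -3.31 (SE 0.54, adjusted p = 0.0164) for control against healthy and 0.53 (SE 0.50, adjusted p = 1) for hNSCs against control. Cdc25b, a phosphatase that activates cyclin-dependent kinases, had 26.3, 69.3 and 56.8 CPM in the control group and 250, 25.2 and 158 CPM in the hNSCs group, and the groups overlapped.

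Over the whole red cell membrane and heme list, 40 members were tested and none was called. At an unadjusted p under 0.05, 8 were higher and 1 lower, and 29 had a fold change above 0, against 49.2% of all genes tested. The groups did not overlap in 2 members that were higher and 3 that were lower, against 3.34% and 4.36% of all genes. The median log2 fold change was 0.61, or 0.66 with genes absent from a group set to their bound, beside 0 over all genes. On leaving out a library it ran from 0.22, without hNSCs replicate 3, to 0.93, without control replicate 1. The summed level of the list was 2120, 1968 and 2072 CPM in the control libraries and 2714, 2128 and 5314 CPM in the hNSCs libraries. The sums did not overlap, though hNSCs replicate 2, at 2128 CPM, was barely above control replicate 1, at 2120 CPM. Of the 6, 1 library, hNSCs replicate 3, lay in the range of the 15 other plasma libraries, 5186 to 35923 CPM. Slc25a38, a mitochondrial glycine carrier for heme synthesis, was the 1 member that was lower at an unadjusted p under 0.05 among the 10 members below 0, with 745, 1222 and 1112 counts in the control group and 339, 28 and 511 in the hNSCs group (log2 fold change -1.56, SE 0.62, adjusted p = 0.814).

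Most hemoglobin transcripts did not follow these genes. Hba2 had 10513, 8458 and 5690 CPM in the control group and 5807, 2801 and 5038 CPM in the hNSCs group, and Hba1 had 8657, 7516 and 4546 CPM against 5413, 2011 and 5127 CPM. The groups overlapped for both genes. The log2 fold change was -0.85 (SE 0.42, adjusted p = 0.814) for Hba2 and -0.72 (SE 0.45, adjusted p = 0.848) for Hba1, which are near-identical copies that may share reads. Of 10 hemoglobin genes tested, 9 had a fold change below 0, with a median of -0.42. The 1 gene above 0, Hbq1b, was also the only one at an unadjusted p under 0.05 in the edgeR test. It had 0, 30 and 36 counts in the control group and 0, 68 and 184 in the hNSCs group, and it was not called. The list summed to 7956 to 27018 CPM in the 6 libraries, all under the 53565 to 364579 CPM of the 15 other plasma libraries. Both groups of 4 days lay below the healthy group for Hba2, with means of 27245 CPM in the healthy, 8220 CPM in the control and 4549 CPM in the hNSCs group. For control against healthy, all 10 hemoglobin genes were lower at an unadjusted p under 0.05, with a median log2 fold change of -1.77 and 0 called. For Hba2, the edgeR test of hNSCs at 4 days against the healthy group gave a log2 fold change of -2.58 with an adjusted p of 0.0497.

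**Figure D3:**
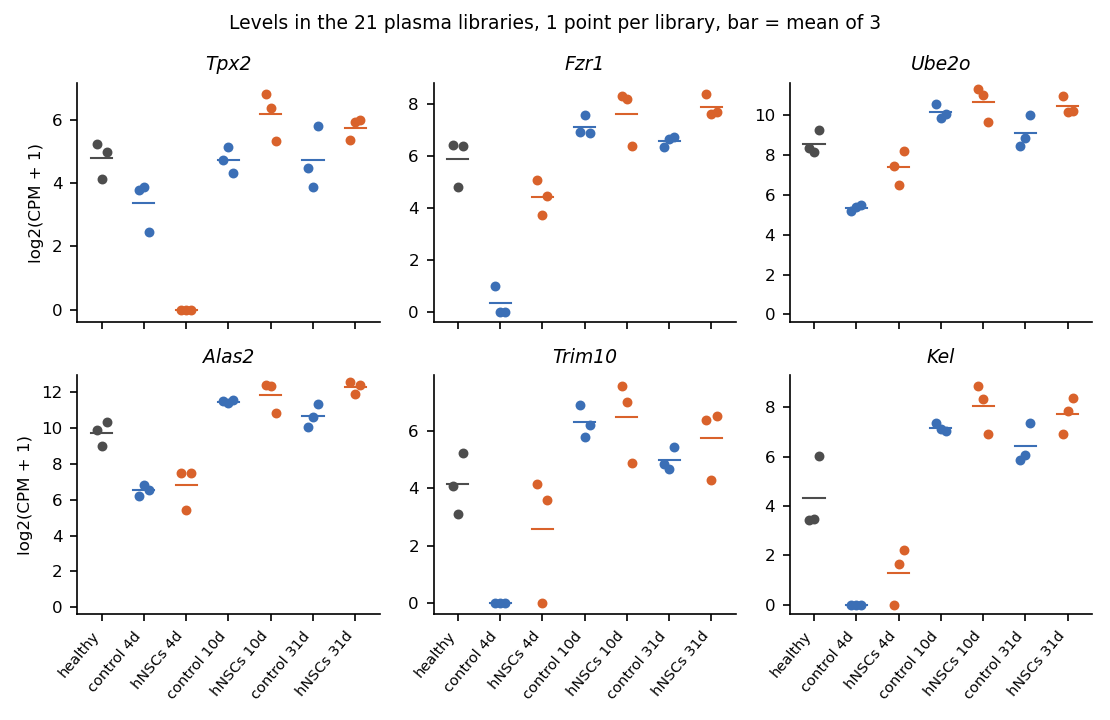
log2(CPM + 1) of 6 genes in the 21 plasma libraries, grouped by condition and time, with 1 point per library and a bar at the mean of 3. Tpx2 is at 0 only in the hNSCs group of 4 days, Trim10 and Kel are at 0 in all 3 control libraries of 4 days, and Ube2o and Alas2 are at their lowest in the groups of 4 days.

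The heart and skeletal muscle lists had the highest medians of the 41 lists, yet no member was called. These lists hold genes of the contractile apparatus and of energy supply in heart and skeletal muscle. All 10 heart muscle genes tested had a fold change above 0, 4 of them at an unadjusted p under 0.05, and in 8 of the 10 the hNSCs libraries lay above the control libraries without overlap, against 3.34% of all genes. Their median log2 fold change was 3.00. Of 31 skeletal muscle genes tested, 23 had a fold change above 0 and 5 below, 7 were higher at an unadjusted p under 0.05, and the median was 2.37, or 2.51 with absent genes at their bound. The groups did not overlap in 4 of the 31, all higher. With limma on log2(FPKM + 1), the median was 1.84 for heart muscle and 0.22 for skeletal muscle. The summed level was 173, 0 and 169 CPM in the control libraries and 857, 646 and 502 CPM in the hNSCs libraries for heart muscle. For skeletal muscle it was 506, 17.4 and 732 CPM against 1882, 1013 and 1284 CPM. Neither pair of sums overlapped, and control replicate 2 was far below the other 5 libraries in both.

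Among single muscle genes, the cardiac myosin heavy chain Myh6 had 64.9, 0 and 54.5 CPM in the control group and 333, 278 and 177 CPM in the hNSCs group. Its log2 fold change was 2.72 (SE 1.05, adjusted p = 0.814). The giant sarcomere protein titin, Ttn, had 109, 0 and 185 CPM against 614, 546 and 357 CPM (log2 fold change 2.37, SE 1.10, adjusted p = 0.814). Cardiac troponin T, Tnnt2, had 80.4, 0 and 55.2 CPM against 255, 146 and 124 CPM (log2 fold change 1.95, SE 1.03, adjusted p = 0.814). Cardiac actin, Actc1, had 0, 0 and 75 counts against 824, 95 and 945 counts, and troponin C, Tnnc1, had 104, 0 and 127 counts against 969, 156 and 946 counts. The groups did not overlap in these 5 genes. They overlapped in Myh7, the slow myosin heavy chain, which had 103, 0 and 131 CPM against 783, 119 and 473 CPM (log2 fold change 2.56, SE 1.15, adjusted p = 0.814). Muscle phosphorylase, Pygm, was at 0 in the control group and had 552, 148 and 246 counts in the hNSCs group, at least 432-fold higher against a floor of 3 counts over the control group (unadjusted p = 0.000892, adjusted p = 0.814).

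The muscle signal did not hold every marker. The fast skeletal genes Myh1, Tnnt3, Tnni2, Myl1, Actn3, Casq1 and Pvalb and the natriuretic peptides Nppa and Nppb were at 0 in all 6 libraries. Smooth muscle genes had a median of 0.004 over 11 members, with 6 above 0 and 5 below 0. Their summed level was 1092, 447 and 1097 CPM in the control group and 1523, 1235 and 3848 CPM in the hNSCs group, without overlap. In the 15 other plasma libraries, the lists summed to 112 to 1054 CPM for heart muscle and 251 to 1563 CPM for skeletal muscle, so that 1 of the 6 libraries, hNSCs replicate 1, exceeded this range for skeletal muscle and control replicate 2 lay below it for both. The heart muscle share of the annotated counts had an exact permutation p of 0.1 (two-sided), the smallest that 3 against 3 libraries allow. Without control replicate 2, the median log2 fold change was 2.21 for heart muscle and 1.60 for skeletal muscle. Without the second library of both groups it was 2.13 and 0.49. Without hNSCs replicate 3 it was 3.02 and 0.75, without hNSCs replicate 2 it was 2.72 and 1.08, and without control replicate 3 it was 10.66 and 8.32. These last medians include members such as Actc1 that were at 0 in both remaining control libraries, whose fitted fold change has no fixed size.

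Platelet genes had higher values in the hNSCs group, carried mostly by hNSCs replicate 3. Pf4, a chemokine stored in platelet granules, had the highest mean over the 6 libraries in FPKM, fragments scaled to transcript length and library size, with 777, 535 and 3569 FPKM in the control group and 2622, 2102 and 12450 FPKM in the hNSCs group. Its log2 fold change was 1.98 (SE 1.17, adjusted p = 0.815), and the groups overlapped. In the control group alone, the mean of Hba2, 4282 FPKM, was above that of Pf4, 1627 FPKM. Of 34 platelet genes tested, 31 had a fold change above 0, with a median of 1.40, and only Rgs18, a regulator of platelet signaling, had an unadjusted p under 0.05. Clec1b, the platelet receptor for podoplanin, had 486, 350 and 1242 CPM against 1438, 931 and 5830 CPM (log2 fold change 1.98, SE 1.01, adjusted p = 0.814). The list summed to 4446, 3436 and 10540 CPM in the control group and 9903, 7571 and 38682 CPM in the hNSCs group. Without hNSCs replicate 3, the median log2 fold change of the list was 0.23. The part of platelet RNA in the other values of that library was not tested.

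T and B cell genes mostly had higher values in the hNSCs group and neutrophil genes lower values, without a call in these lists, while of 18 NK and cytotoxic genes 8 had a fold change above 0 and 9 below 0. Of 29 T cell genes tested, 25 had a fold change above 0, 4 of them at an unadjusted p under 0.05, with a median of 1.15, which was 0.18 without hNSCs replicate 3 and 2.08 without control replicate 3. The adaptor Skap1 had 0, 0 and 428 counts in the control group and 743, 136 and 2503 in the hNSCs group (log2 fold change 3.39, SE 1.48, adjusted p = 0.814). The B cell linker Blnk had 9.88, 10.8 and 17.8 CPM against 102, 34.4 and 28.2 CPM (log2 fold change 2.09, SE 0.91, adjusted p = 0.814), and the groups did not overlap for either gene. Of 21 B cell genes tested, 14 had a fold change above 0 and 6 below 0. Cd37 of this list had 23.5, 97.1 and 51.3 CPM in the control group and 41.0, 45.7 and 36.9 CPM in the hNSCs group, with overlap. The median over the 21 genes was 1.02. It was 0 without hNSCs replicate 3, 0.29 without hNSCs replicate 1, 0.44 without control replicate 1 and 1.67 without control replicate 3.

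Of 29 neutrophil genes tested, 21 had a fold change below 0, with a median of -0.98 that was -0.18 without control replicate 2 and -1.77 without hNSCs replicate 1. The calprotectin subunit S100a9 had 373, 1757 and 413 CPM in the control group and 125, 385 and 94.9 CPM in the hNSCs group (log2 fold change -2.07, SE 0.79, adjusted p = 0.814). Only hNSCs replicate 2 reached the control values. The summed level of the neutrophil list was 4090 CPM in control replicate 2 and 387 to 1340 CPM in the other 5 libraries, and that of the monocyte and macrophage list 7056 CPM against 1783 to 3378 CPM. Endothelial genes had a median of -0.86 over 23 members, 16 of them below 0, and none at an unadjusted p under 0.05. It was -0.53 without hNSCs replicate 1 and -1.54 without hNSCs replicate 2.

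Liver genes were set apart by 1 control library. Alb, serum albumin, had 126450, 372 and 284176 counts in the control libraries and 185367, 113437 and 144473 in the hNSCs libraries, a log2 fold change of 1.02 (SE 1.25, adjusted p = 1). Fga, the fibrinogen alpha chain, had 45942, 8 and 91101 counts against 47155, 35839 and 24241 (log2 fold change 0.70, SE 1.35, adjusted p = 1). Control replicate 2 was the only low library in both. Of 44 liver genes, 39 had a fold change above 0, with a median of 0.63 that was 0.06 without control replicate 2 and 1.77 without control replicate 3. The medians of the acute phase, coagulation, complement and lipoprotein lists were 0.65, 0.66, 0.52 and 0.87, and without control replicate 2 they were 0.10, 0.10, 0.01 and 0.29. Without the second library of both groups, the median of the liver list was -0.40.

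**Figure D4:**
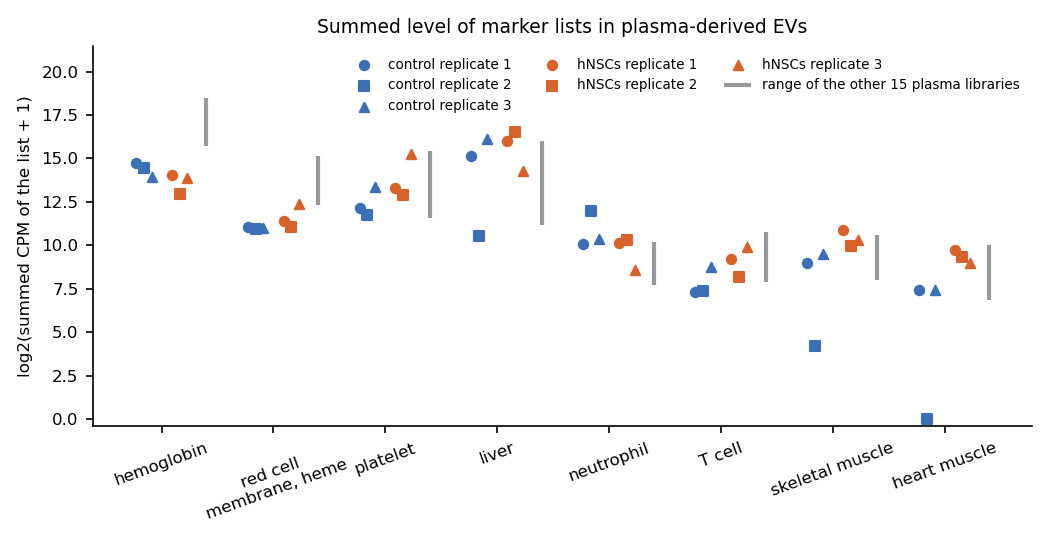
log2(summed CPM + 1) of 8 marker lists in the 6 libraries, with 1 point per library, its shape giving the replicate number, and a gray line for the range of the 15 other plasma libraries. Control replicate 2 is low for liver and both muscle lists and high for neutrophil genes, hNSCs replicate 3 is highest for platelet genes, and all 6 libraries lie under the gray line for hemoglobin.

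The most abundant mRNAs were of genes known from platelets, red cells and the machinery that all cells share, and none differed between the groups by the test. Which cells released them was not tested. Ranked by FPKM over the 6 libraries, these mRNAs were Pf4, Fth1, Hba2, Rplp1, Hba1, Tmsb4x, Actb and Rpl26. The ferritin heavy chain Fth1, which stores iron, had 1847, 1951 and 3567 FPKM in the control group and 2446, 2819 and 7493 FPKM in the hNSCs group. Its log2 fold change in counts was 0.93 (SE 0.68, adjusted p = 0.996). Tmsb4x, the actin-binding thymosin beta 4, had 1180, 2360 and 2184 FPKM against 1078, 1592 and 4037 FPKM, and Actb, cytoplasmic beta actin, 1250, 2388 and 2196 FPKM against 1443, 1584 and 3396 FPKM. The ribosomal protein gene Rplp1 had 2499, 3623 and 4192 FPKM against 1717, 2356 and 3450 FPKM. The groups overlapped in all 4, and hNSCs replicate 3 was the highest library for Fth1, Tmsb4x and Actb.

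Genes of basic cell machinery had medians close to 0, mostly slightly below it. Of 86 cytosolic ribosomal protein genes, 76 had a fold change below 0, with none called and a median of -0.29, which turned to 0.02 when the second library of both groups was left out. The medians were -0.16 over 79 oxidative phosphorylation genes and -0.32 over 46 proteasome genes. Eef1a1, the elongation factor that every cell uses, had a log2 fold change of -0.01 (SE 0.25). The chaperone Hspa8 had 864, 1276 and 1248 CPM in the control group and 425, 563 and 754 CPM in the hNSCs group, without overlap, as were 4.36% of all genes in this direction (log2 fold change -0.96, SE 0.32, adjusted p = 0.814). The glutathione peroxidase Gpx1 had 798, 2226 and 770 CPM against 525, 675 and 448 CPM, also without overlap (log2 fold change -1.20, SE 0.46, adjusted p = 0.814).

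Of the immediate early genes, which are transcribed within minutes of a stimulus, 24 of 29 had a fold change below 0, with a median of -0.70 that was -0.30 without control replicate 2 and -0.14 without the second library of both groups. Jun, a subunit of the AP-1 transcription factor, had 150, 35 and 118 CPM in the control group and 46.9, 2.29 and 49.1 CPM in the hNSCs group (log2 fold change -1.62, SE 0.71, adjusted p = 0.814), and the groups overlapped. The redox proteins Park7 and Prdx6 had log2 fold changes of -0.16 (SE 0.39) and -0.24 (SE 0.52), and the endoplasmic reticulum chaperone Calr one of 0.47 (SE 0.42). None of the 4 was called. The EV biogenesis and tetraspanin list had a median of -0.10 over 41 members, and 0.05 without the second library of both groups.

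**Figure D5:**
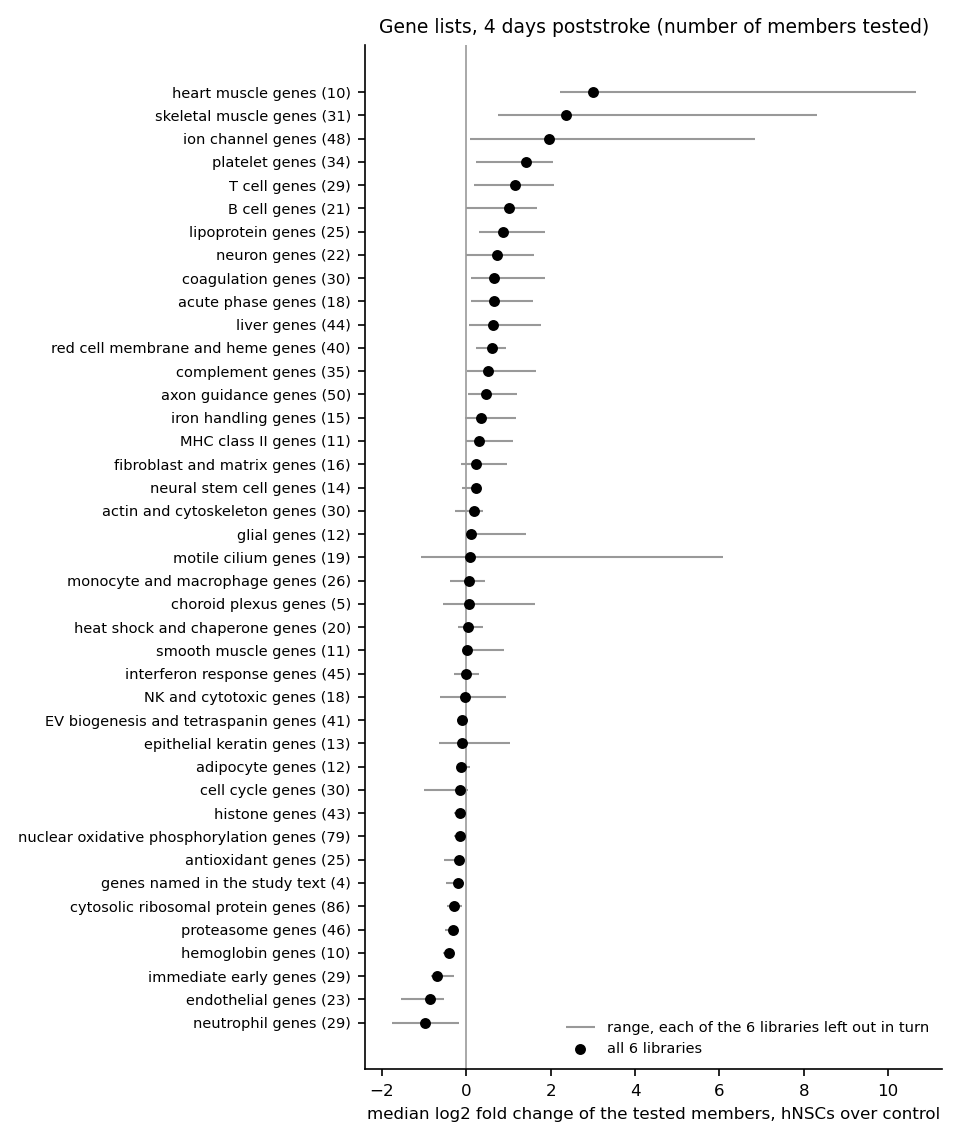
Median log2 fold change of the tested members of each of the 41 gene lists (points; number of members in parentheses), with a line for its range when each of the 6 libraries was left out in turn. Heart and skeletal muscle have the highest medians, 3.00 and 2.37, with wide ranges, and neutrophil genes the lowest, -0.98.

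Markers of brain cells were sparse. Of 45 neuron genes, 22 passed the filter on low counts and 13 were at 0 in all 6 libraries, among them Syt1, Gap43, Tubb3, Camk2a, Gad1 and Gad2. The neuron genes Map1b and Shank3 were present in all 6. Map1b had 1265, 1147 and 2180 counts in the control group and 1057, 268 and 2538 in the hNSCs group. Shank3 had 1989, 1564 and 1029 against 412, 687 and 1738 counts. Of 21 neural stem cell genes, 14 were tested, 8 of them above 0 and 6 below 0, with a median of 0.23. Sox2, Pax6, Msi1, Hes5, Sox1 and Dcx of that list were at 0 in all 6. The median log2 fold change was 0.72 over the neuron genes tested, 0.03 without control replicate 2, 0 without hNSCs replicate 2 and 1.61 without control replicate 1. Over 12 glial genes it was 0.12, and leaving out 1 library moved it between 0, without hNSCs replicate 3, and 1.41, without control replicate 2. Ion channel genes had a median of 1.97 over 48 members, or 1.77 with absent genes at their bound, with 0.09 without hNSCs replicate 2, 3.91 without control replicate 2 and 6.83 without control replicate 3. In 23 of the 48 a whole group was at 0. The T-type calcium channel gene Cacna1g was one of them, with no counts in the control group and 108, 110 and 223 in the hNSCs group (adjusted p = 0.814).

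Presence in one group and absence from the other was a common pattern. Of the genes tested, 1165 were at 0 in all control libraries but found in the hNSCs group, and 442 were at 0 in all hNSCs libraries but found in the control group. With at least 10 counts required in every library of the other group, 49 genes were found in the hNSCs group alone and 18 in the control group alone. At 10 days the same counts were 278 and 1, and at 31 days 8 and 266. Tpx2 was the only one of the 67 genes that had counts in all 15 other plasma libraries. Each of the others was at 0 in at least 2 of these 15, with a median of 7 for genes of the hNSCs group and 6 for those of the control group, and none had an adjusted p under 0.814.

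Among the 49, named after their values were seen, were Coil, which encodes coilin of Cajal bodies, with 784, 115 and 214 counts, the DNA helicase gene Recql5 with 265, 306 and 266 counts, and the lymphocyte activation antigen Cd69 with 326, 65 and 181 counts. The sarcomere gene Actn2 had 167, 188 and 607 counts, and Csrp3, a muscle LIM protein, 172, 114 and 74. Among the 18 were Racgap1, a regulator of cytokinesis, with 78, 237 and 72 counts in the control libraries, and the lysosomal membrane gene Ostm1 with 155, 298 and 354 counts. LOC108348093, with 140, 53 and 106 counts in the hNSCs libraries, was at 0 in all 15 others as well as in the control group.

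The effect of hNSCs on Tpx2 at 4 days differed from that at the later times. The interaction of treatment and time had an adjusted p of 0.00119 against 10 days and 0.00262 against 31 days, and Tpx2 was the only gene called in either (0.00679% of the genes tested). limma on log2 FPKM called no gene lower in either interaction, so that Tpx2 was not called there. At 10 days, Tpx2 had 392, 662 and 401 counts in the control group and 2241, 1262 and 558 in the hNSCs group, a log2 fold change of 1.57 (SE 0.71, adjusted p = 0.834). At 31 days it was 0.84 (SE 0.70, adjusted p = 0.824). In brain-derived EVs of the same groups at 4 days, Tpx2 had a log2 fold change of 0.14 (SE 1.46, adjusted p = 1), and no gene was called among 14515 tested (0%), with 1093 (7.53%) at an unadjusted p under 0.05.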

How the data were processed

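RNA of EVs isolated by size exclusion chromatography from plasma (called serum in one label) was sequenced from SMARTer stranded total RNA libraries. The authors aligned reads to Rnor_6.0 with Bowtie2 and assembled transcripts with StringTie. The deposited counts are whole, unnormalized reads per gene, without molecular identifiers, and the deposited FPKM values were made by the authors with StringTie. How counts were assigned, the strand setting and tool versions are not given in the sources used here. Every column mapped to a sample.

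Annotated genes of the 21 plasma libraries were fitted with edgeR 4.0.16 in R 4.3.3 as 1 model of 7 groups (filterByExpr, TMM, quasi-likelihood test, Benjamini-Hochberg adjustment over 14720 genes). A gene was called when its adjusted p was under 0.05 and it differed by more than 1.5-fold. CPM are counts scaled by the TMM library size, or by the total of annotated counts for the medians of Pearson's r, and FPKM serve to rank genes by level. A gene at 0 in a whole group was given a bound against 3 counts over that group. Alternatives were DESeq2 1.42.0, limma 3.58.1 on log2(FPKM + 1) or log2(FPKM + 0.1), RLE scaling, other filters, only the 6 libraries, a replicate block, unannotated transcripts kept, hemoglobin and liver genes left out, other thresholds, and each library left out. Leaving out the second library of both groups was added after seeing the data. The scripts were tested on simulated data.

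The 41 lists and the genes compared were chosen with earlier results of these data known. Named were called genes, the 8 genes highest in FPKM, Park7, Prdx6, Jun, Calr, Hba1 and Hba2, and from each list its called members or, with none, the 2 of highest CPM. Members of a list at an unadjusted p under 0.05, the genes of lowest p, genes absent from a group and genes called against the healthy group were named after their values were seen. Some genes that met these rules are not reported here. Labels mark the 3 libraries of a group as biological replicates.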

Additional observations from a re-analysis of the deposited data

Results flagged for a closer look

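The effect of hNSCs on Tpx2 differed between time points by the test of the difference itself. Tpx2 had 259, 304 and 134 counts in the control group and 0, 0 and 0 in the hNSCs group at 4 days, 392, 662 and 401 against 2241, 1262 and 558 at 10 days, and 629, 285 and 1698 against 892, 1614 and 1243 at 31 days. The interaction in the edgeR model had an adjusted p of 0.001191 for 4 days against 10 days and 0.002622 for 4 days against 31 days. limma on log2 FPKM called Tpx2 in neither. The 3 hNSCs libraries of 4 days were the only plasma libraries at 0.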

How the results depend on the processing

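Control replicate 2 and hNSCs replicates 2 and 3 limited most statements, and with 3 libraries a group and detection close to all-or-none, an absent call is not an absent difference. With all genes kept, 4 genes were called higher (Kel, Fzr1, Trim10 and Il12rb2) and 2 lower (Tspan33 and Tpx2). With only the 6 libraries, 0 were called lower. DESeq2 called 680 higher and 278 lower, 71.0% of its calls higher. Of its 958 calls, 908 were at 0 in all 3 libraries of a group, 870 had an absolute log2 fold change over 10, and 302 had an unadjusted edgeR p under 0.05. limma called 3 higher and 0 lower with either pseudocount (LOC108348093 in both, Coa7 and Tnnc1 with 1, Fzr1 and Actc1 with 0.1), and with 0.1 the median over all genes shifted to -0.12. An unadjusted p under 0.05 gave 379 higher and 201 lower. Without the second library of both groups, 1 was called higher (Trim10). Leaving out 1 library gave between 0 and 4 higher and between 1 and 37 lower, the 37 without hNSCs replicate 3. For the difference from 10 days, DESeq2 called 334 higher and 811 lower, and leaving out 1 library gave 0 to 2 higher and 1 to 34 lower. For 31 days it was 1481 and 361, and 0 to 3 higher and 1 to 36 lower. limma with either pseudocount called 0 lower for both differences, so that Tpx2 lost the call, with 0 higher for 10 days and 2 (pseudocount 1) or 1 (0.1) higher for 31 days. Between 20 and 28 lists had a median above 0 on leaving out 1 library, 25 with all, and 17 without the second library of both groups. RLE scaling, at least 50 counts in 3 libraries, unannotated transcripts, hemoglobin or liver genes left out and no fold limit left 0 higher and 1 lower. For the values that moved, the cause was not tested.

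On leaving out 1 library, the difference of hNSCs minus control ran from -11127000 to 6952820 for total counts, from -17.5 to -7.71 percentage points for the annotated share, from -417 to 1736 for genes detected, and in percentage points from -1.55 to -0.689 for hemoglobin, 0.354 to 1.78 for platelet, 0.667 to 5.42 for liver, 0.0765 to 0.128 for skeletal muscle and 0.0510 to 0.0783 for heart muscle. All 8 differences had an exact permutation p of at least 0.1. A replicate block called 0 genes higher and 1 lower, Tpx2 (edgeR adjusted p = 0.00645), and the replicate numbers name different rats. Deviations of same-numbered libraries correlated at 0.0061, -0.031 and -0.028, and no control library correlated best with the hNSCs library of its own number. Of 145 genes with 2565 alternative values, 2328 kept their value and side of the threshold, 179 moved by more than their standard error, 55 were called and 3, all of Tpx2, lost the call.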

Other observations

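Antigen presentation and interferon genes showed no common direction. Of 45 interferon response genes tested, 20 had a fold change above 0 and 24 below 0, with none called. Irf9, a transcription factor of interferon signaling, had 830, 701 and 698 counts in the control group and 984, 731 and 1799 in the hNSCs group, without overlap after scaling (log2 fold change 1.20, SE 0.49, adjusted p = 0.814). The median over 11 class II histocompatibility genes was 0.29 and ran from 0 to 1.11 on leaving out 1 library, and Cd74, the invariant chain, had a log2 fold change of 0.68 (SE 0.55, adjusted p = 1). Cytotoxic lymphocyte genes were seen on both sides. Prf1, the pore-forming perforin, was at 0 in the control group and had 0, 82 and 317 counts in the hNSCs group, while Cst7, a cystatin of cytotoxic cells, had 0, 2440 and 510 counts in the control group and none in the hNSCs group. Neither passed the test.

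Vim, Tyrobp, Txn1 and Psma3 had negative fold changes, and none was called. The intermediate filament gene Vim, a member of the neural stem cell list that many other cell types also express, had 2190, 10118 and 1744 CPM in the control group and 1653, 2746 and 1733 CPM in the hNSCs group (log2 fold change -1.20, SE 0.48, adjusted p = 0.814), and control replicate 2 alone stood far above the other 5 libraries. Tyrobp, an adaptor of myeloid receptors, had 3874, 13413 and 5431 counts against 2122, 1254 and 2101 (log2 fold change -1.38, SE 0.60, adjusted p = 0.814). The monocyte and macrophage list, which holds Tyrobp, showed no common direction. Of its 26 genes tested, 14 had a fold change above 0 and 12 below 0, with a median of 0.07. Of 25 antioxidant genes, 14 had a fold change below 0. Txn1, thioredoxin, had 2181, 1597 and 2802 counts against 525, 479 and 1665, without overlap after scaling (log2 fold change -0.85, SE 0.36, adjusted p = 0.814). Psma3, a subunit of the proteasome core, had 2614, 4395 and 5543 counts against 597, 629 and 3707, also without overlap (log2 fold change -1.08, SE 0.41, adjusted p = 0.814). Irf9, Prf1, Tyrobp, Txn1 and Psma3 were named after their values were seen.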
